A study of Rattus norvegicus with 43 samples.

Results

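Levels of 10 genes of the fibroblast and its collagen matrix were examined in anterior pituitaries from 43 estrogen-treated male rats. The genes were chosen by name: Dcn, Lum, Col1a1, Col1a2, Col3a1, Col4a1, Fn1, Sparc, Mgp and Timp1. They are 10 of 14217 genes named by a single symbol on the array, and 14 of its 31099 probe sets (groups of short probes that report 1 transcript) measure them. All animals belonged to the F2 generation of a cross of Copenhagen (COP) females with ACI males, and all carried a silastic implant with 5 mg of the synthetic estrogen diethylstilbestrol (DES) from 9 to 21 weeks of age, which is 12 weeks of treatment. Bromodeoxyuridine (50 mg/kg) had been injected 4 hours before sacrifice. Each array held RNA of 1 animal, and arrays are named by the animal number in the label. Untreated animals were not analysed here, so no value below is an effect of DES.

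By the design text the study took the 22 heaviest and 21 lightest pituitaries of a larger population, but which array came from which class is not labelled. The arrays were therefore treated as 1 group, and correlations over them describe animals selected at both extremes. Levels are log2(intensity + 16). Probe sets passed a filter when their mean level exceeded 7.16, the median of all probe sets, as 15521 did. The array of animal 43 stood apart: its mean correlation with the others was 0.927, against 0.967 to 0.976 for the rest, and the actin signal at the 3' end exceeded that at the 5' end by 1.97 on the log2 scale, against 1.26 to 1.67. All measured markers of lactotrophs, somatotrophs, gonadotrophs and thyrotrophs passed the filter, whereas both measured corticotroph markers, Pomc and Tbx19, did not pass the filter. None of the 4 posterior lobe markers (Avp, Oxt, Nkx2-1 and Rax) passed.

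The stroma of the anterior pituitary lies around its capillaries and in its capsule. Fibrillar collagens of types I and III form the interstitial fibers, whereas type IV collagen forms the sheet of the basement membrane under endothelium and around the cords of endocrine cells. Decorin and lumican are small leucine-rich proteoglycans that bind collagen fibrils and regulate their width. Fibronectin and SPARC organize the matrix, matrix Gla protein inhibits calcification, and TIMP1 inhibits matrix metalloproteinases. In a whole gland, fewer cells of a type and less RNA per cell cannot be told apart.

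Of the 10 genes, 7 passed the filter. Lum, Col1a1 and Fn1 did not, and were described but not tested as responses. Of the 17 measured proteoglycan and fibroblast genes on the list used here, 7 passed (Ogn, Prelp, Bgn, Thy1, Fmod, Fbln2 and Fbn1). Pdgfra, a marker of many fibroblasts, was among those that did not. Brightness is not calibrated between probe sets, so the levels of different genes are not compared.

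By the probe set with the highest mean of each gene, the proteoglycans exhibited the widest ranges of the 10 genes. A dimmer second probe set of Col1a1 spread at least as widely as Dcn (SD 0.88, range 3.08 on the log2 scale). Dcn, which encodes decorin, had a level of 7.15 in the lowest animal (number 3), a median of 9.01 and a level of 10.23 in the highest (number 43), with a mean of 8.81 ± 0.77 (SD, n = 43). Its intensity spanned 125.8 to 1182.7, and only 0.419% of the probe sets that passed the filter had a larger SD. Lum, which encodes lumican, lay between 4.12 in animal 2 and 8.11 in animal 43, with a median of 6.78 and a mean of 6.60 ± 0.92 (SD, n = 43). The intensity of Lum was as low as 1.4 in animal 2, where the added constant sets most of the value. Dcn and Lum are neighbors on rat chromosome 7, in the order Btg1, Dcn, Lum, Kera and Epyc in the RefSeq annotation.

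The genes of type I and type III collagen differed in spread. Col1a2, encoding the α2 chain of type I collagen, ranged over 8.93 in animal 4, 9.89 at the median and 10.69 in animal 40 (mean 9.92 ± 0.40, SD, n = 43). A second Col1a2 probe set averaged 9.34 ± 0.30 and followed the first (r = 0.80). Col1a1, which encodes the α1 chain of the same molecule, was dim, with 5.81 in animal 16, 6.66 at the median and 7.31 in animal 14 (mean 6.61 ± 0.38). Its second probe set, dimmer still at 5.73 ± 0.88, was only weakly correlated with the first (r = 0.18, permutation p = 0.235, n = 43). Correlations of both Col1a1 probe sets with the other members are therefore given below. The main regressions, the gene lists and the search for like genes used the first alone. Col3a1, encoding type III collagen, lay between 7.35 in animal 32 and 9.57 in animal 14, with a median of 8.11 and a mean of 8.15 ± 0.44. The highest Col3a1 level was followed at a distance by 9.13 in animal 19.

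Col4a1, encoding the α1 chain of basement membrane collagen, had a narrower range. It was 7.67 in animal 43, 8.36 at the median and 8.96 in animal 14 (mean 8.37 ± 0.26), and its second probe set (7.75 ± 0.33) correlated with the first at r = 0.60. Fn1, encoding fibronectin, lay at 5.11 in animal 38, 6.90 at the median and 7.76 in animal 14 (mean 6.86 ± 0.47). The Fn1 level of animal 38 was separated from the next lowest animal, at 5.99. Sparc ranged over 10.79 in animal 16, 11.76 at the median and 12.26 in animal 13 (mean 11.68 ± 0.35). The second Sparc probe set averaged 11.42 ± 0.32 and correlated with the first at r = 0.73.

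Of the regulators of calcification and proteolysis, Mgp and Timp1, the second exhibited the smallest SD of the 10 genes. Mgp lay at 10.08 in animal 1, 10.75 at the median and 11.59 in animal 14 (mean 10.74 ± 0.33). Timp1 was 10.48 in animal 3, 11.04 at the median and 11.51 in animal 43 (mean 11.04 ± 0.23), a 2.05-fold range on this scale. Of the probe sets that passed, 52.5% had a larger SD than Timp1 and 16.4% a larger SD than Mgp. The corresponding share was 5.06% for Col3a1, 7.30% for Col1a2, 12.7% for Sparc and 38.0% for Col4a1.

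**Figure D1:**
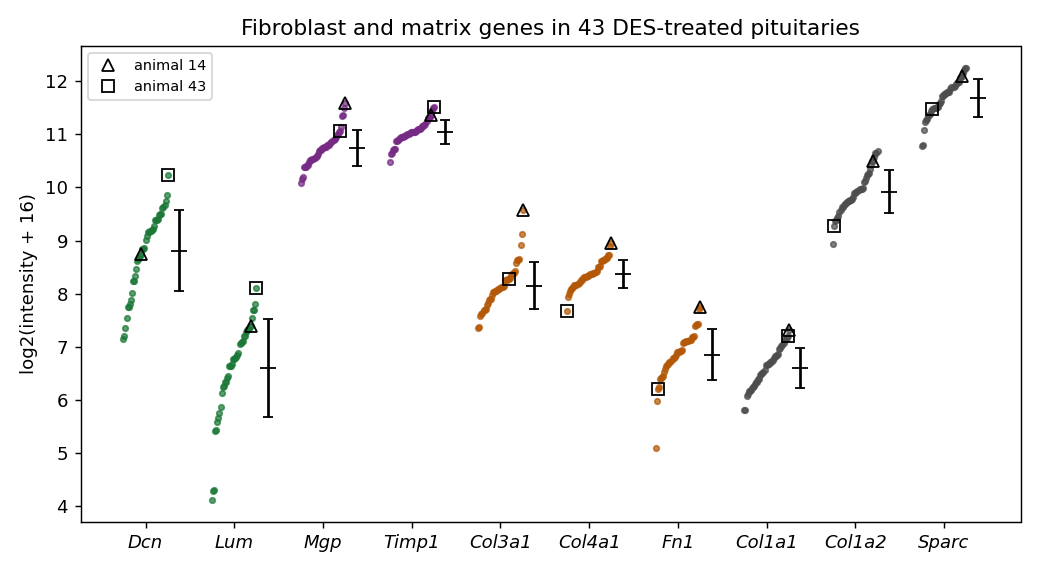
Level of each gene, as log2(intensity + 16), on the 43 arrays, sorted within each gene. The bar beside each gene gives the mean and SD (n = 43), and open symbols mark animals 14 and 43. Of the probe sets shown, 1 per gene, those of Dcn and Lum spread the most, with SDs of 0.77 and 0.92. Animal 14 was highest in 5 genes.

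Single animals stood at the ends of several genes at once. By the brightest probe set of each gene, animal 14 had the highest level of Col1a1, Col3a1, Col4a1, Fn1 and Mgp. It exceeded the mean in 9 of the 10 genes. Its Dcn level was 8.74, below the mean. Animal 43 was highest in Dcn, Lum and Timp1 and lowest in Col4a1. By the second Col4a1 probe set, which also passed the filter, animal 30 was highest and animal 16 lowest. Animal 38 was among the 3 lowest in 3 genes, yet its Dcn level of 9.86 was exceeded by animal 43 alone. Results that these arrays changed are given below with and without them. No gene fell into separate clusters by the Bayesian information criterion.

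To ask which of the 10 genes varied together, every probe set that passed the filter was regressed on the level of each gene in turn with limma, and p-values were adjusted over all probe sets of a regression. A pair was called when the adjusted p was under 0.05 in both directions. Over the 10 regressions together, 2.01% of the tests on other probe sets were called as higher with the gene and 2% as lower. Of 45 pairs, 35 had r above 0 and 10 had r below 0, with a median r of 0.20 and extremes of −0.29 (Dcn and Fn1) and 0.82 (Dcn and Lum). Among the 21 pairs tested in both directions, 1 was called, Mgp with Timp1. None was called as opposite.

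**Figure D2:**
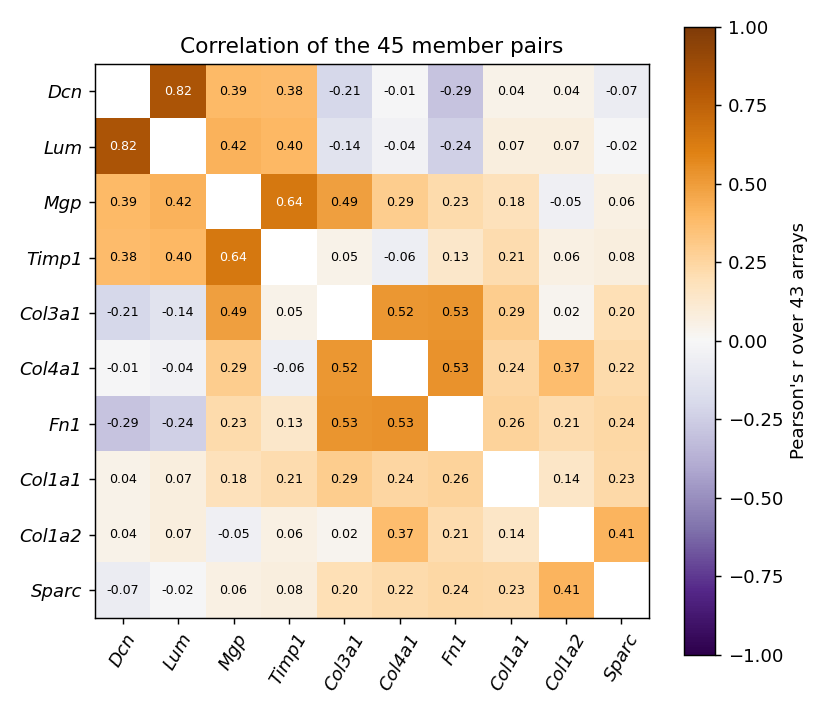
Pearson's r over 43 arrays for each of the 45 pairs, as the color and the printed value. The genes are ordered so that the pairs Dcn and Lum (0.82), Mgp and Timp1 (0.64), and the trio of Col3a1, Col4a1 and Fn1 (0.52 to 0.53) lie along the diagonal.

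Dcn and Lum showed the closest relation. Across animals r was 0.82 and rho 0.77, each with a permutation p of 1e-05, the smallest that 100000 permutations can give (n = 43). Without animals 3 and 6, which lay farthest from the Dcn median, r was 0.80. In the regression on Lum, Dcn was called with an adjusted p of 2.02e-08 (limma), against 7.43% of other probe sets called as higher with Lum. The reverse direction was not tested, since Lum did not pass the filter. With no filter the pair was called in both directions.

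The 250 bases upstream of the RefSeq start of Lum are shown because Lum belongs to the closest pair in the set. They lie at chr7:34245456-34245705 on the plus strand of GRCr8, and capitals mark a CCAAT box on the reverse strand. Both strands were searched for the TATA box (TATAAA), the CCAAT box (CCAAT), the GC box (GGGCGG), the AP-1 site (TGAGTCA) and a variant of the AP-1 site (TGAGTAA). The CCAAT box was found in 34.0% of 33469 upstream regions of this length, and a match is a description of letters only.
Lum: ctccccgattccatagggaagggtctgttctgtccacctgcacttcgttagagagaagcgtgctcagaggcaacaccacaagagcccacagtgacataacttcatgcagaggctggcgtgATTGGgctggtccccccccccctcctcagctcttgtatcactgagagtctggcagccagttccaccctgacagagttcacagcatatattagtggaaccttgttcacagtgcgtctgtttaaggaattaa

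Mgp and Timp1 varied together across the animals. Their r was 0.64 (permutation p = 2e-05) and rho 0.54 (p = 0.00019, n = 43). Without animals 14 and 12, the farthest from the Mgp median, r was 0.57. Timp1 was called in the regression on Mgp (adjusted p = 0.00715, limma) and Mgp in the regression on Timp1 (0.00557), where only 0.129% and 0.0774% of other probe sets were called as higher. The pair was no longer called on ranks (adjusted p = 0.298) or with a smooth trend over animal number in the model (0.0956, r = 0.61).

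Timp1 is X-linked, and its upstream sequence is shown because Timp1 belongs to the called pair. It lies at chrX:3771123-3771372 on the minus strand of GRCr8. Capitals mark a GC box on the reverse strand and the AP-1 variant, 142 and 108 bases before the start. The GC box occurs in 30.5% of all such regions, the AP-1 variant in 2.38% and the AP-1 site itself in 4.05%. The variant was added to the search after this sequence had been read.
Timp1: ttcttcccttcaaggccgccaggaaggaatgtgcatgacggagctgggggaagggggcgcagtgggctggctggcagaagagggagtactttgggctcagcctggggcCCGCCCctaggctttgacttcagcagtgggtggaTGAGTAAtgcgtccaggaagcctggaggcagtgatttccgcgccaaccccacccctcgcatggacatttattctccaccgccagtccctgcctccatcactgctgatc

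Decorin and lumican were also weakly related to this pair. Mgp was called in the regression on Lum (r = 0.42, adjusted p = 0.0331, limma), but not without animal 43 (0.0562). Dcn and Mgp had r = 0.39, with adjusted p of 0.0373 in the regression on Dcn and 0.212 in the regression on Mgp, and r was 0.26 without animals 3 and 6. Dcn and Timp1 had r = 0.38 and rho = 0.27 (permutation p = 0.0788, n = 43), and r was 0.22 without the same animals. Lum and Timp1 had r = 0.40 with an adjusted p of 0.0518, and r was 0.48 without animals 2 and 5, the farthest from the Lum median.

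Col3a1, Col4a1 and Fn1 formed a further set of moderate correlations, none of them called in the main regressions. Col3a1 and Col4a1 had r = 0.52 (permutation p = 0.00035, rho = 0.46, p = 0.00212, n = 43), with adjusted p of 0.0678 and 0.0342 in the 2 directions. Fn1 had r = 0.53 both with Col3a1 (permutation p = 0.0004) and with Col4a1 (p = 0.00022), and the adjusted p of each in the regression on Fn1 was 0.0579 and 0.0610. Without the 2 animals farthest from the median, the 3 correlations lay between 0.43 and 0.46. By these probe sets, animal 14 was the highest in all 3 genes. Col3a1 was correlated to a like degree with Mgp (r = 0.49, permutation p = 0.00099, rho = 0.39, n = 43), again without a call (adjusted p = 0.0798 and 0.0886), and r was 0.27 without animals 14 and 19.

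The second probe set of Col1a1 was correlated with this trio, although it did not pass the filter. Its intensity was as low as 3.8 in animal 7, where the added constant sets most of the value. This probe set had r = 0.66 with Fn1 (permutation p = 1e-05), 0.59 with Col4a1 (2e-05) and 0.53 with Col3a1 (0.00023, n = 43 each). The first Col1a1 probe set had r = 0.26, 0.24 and 0.29 with the same genes, and the difference between the probe sets was not tested. Second probe sets of Col1a1 and Col4a1 correlated at 0.53, and the second Col4a1 probe set correlated with Col3a1 at 0.52. When the mean of all probe sets of a gene was used, Col4a1 was called in the regression on Col1a1 (r = 0.66, adjusted p = 0.0162). These permutation p-values are unadjusted, and 95 relations were computed.

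Probe sets for chains of 1 collagen molecule were weakly to moderately correlated. Col1a1 and Col1a2 form type I collagen together. Their brightest probe sets had r = 0.14 (permutation p = 0.363, n = 43), and their second probe sets had r = 0.46 (p = 0.00196). Neither Col1a1 probe set passed the filter, and they correlated with each other at only 0.18, so these values cannot show whether the chains vary together. Col4a1 and Col4a2, the chains of the common type IV collagen, had r = 0.20 (p = 0.198), and r = 0.26 with the second Col4a1 probe set. Col3a1 and its neighbor on chromosome 9, the type V collagen gene Col5a2, had r = 0.35 with the brighter Col5a2 probe set and 0.12 with the dimmer one.

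Col4a1 and Col4a2 are transcribed away from each other on chromosome 16. The sequence before the Col4a1 start is shown because its end lies before the starts of both. In the RefSeq annotation, 76 bases separate the first bases of the 2 genes. Below are the 250 bases before the Col4a1 start, chr16:84885347-84885596 on the plus strand of GRCr8, with the stretch between the starts in capitals. This sequence is 75.2% G or C, against a median of 51.2% over all regions. It holds a CCAAT box on the reverse strand and a GC box on the reverse strand, 170 and 16 bases before the start, and no TATA box, which 12.9% of all regions hold. Of these boxes, only the GC box lies between the starts. The bases in small letters, with the CCAAT box, run from the Col4a2 start into that gene.
Col4a1: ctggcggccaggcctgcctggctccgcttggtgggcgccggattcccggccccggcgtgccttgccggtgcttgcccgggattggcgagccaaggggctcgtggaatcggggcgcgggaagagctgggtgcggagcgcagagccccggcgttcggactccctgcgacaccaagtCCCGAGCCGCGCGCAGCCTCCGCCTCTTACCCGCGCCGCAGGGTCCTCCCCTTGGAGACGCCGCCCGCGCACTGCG

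By their brightest probe sets, Sparc and Col1a2 correlated with each other more than with the remaining genes. Their r was 0.41 (permutation p = 0.00642, n = 43), and neither direction was called (adjusted p = 0.436 and 0.504, limma). The first Col1a2 probe set had r = 0.37 with Col4a1. The second Sparc probe set had r = 0.46 with the first of Col1a2. The second Col1a2 probe set, however, had r = 0.29 with the first of Sparc, 0.42 with Col4a1 and 0.37 with Fn1. Second probe sets of both genes had r = 0.23 (permutation p = 0.143). Dcn had r of 0.04 with Col1a2, −0.01 with Col4a1, and 0.04 with the first but −0.24 with the second Col1a1 probe set. It was negative with Fn1 (−0.29) and Col3a1 (−0.21), neither called. The sign of Dcn with Col3a1 turned to 0.18 with a smooth trend over animal number in the model and to 0.12 with a step between animals 22 and 23.

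**Figure D3:**
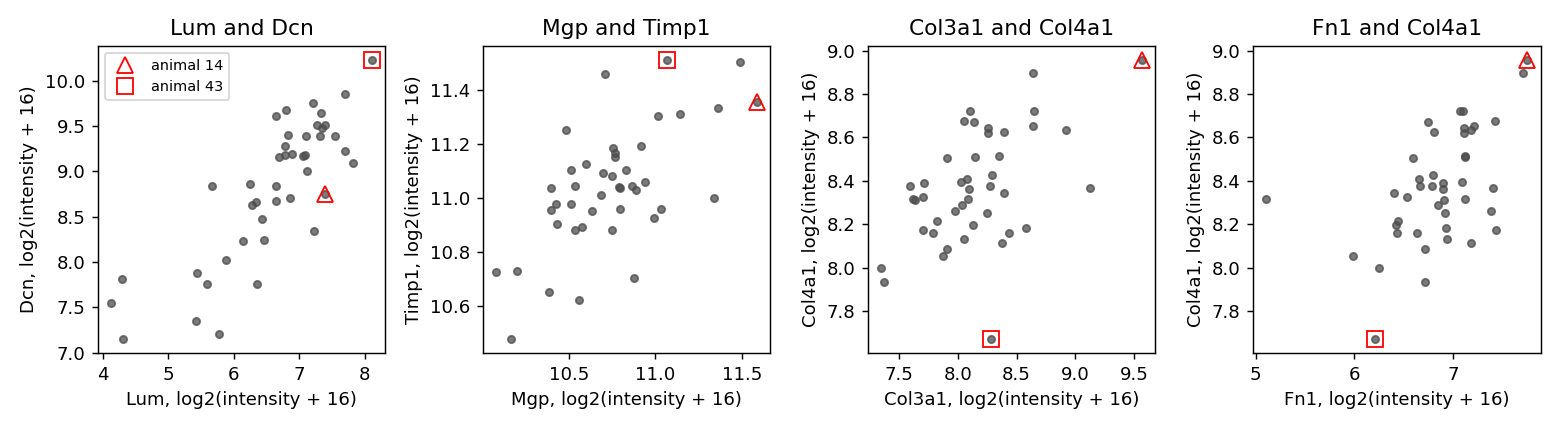
Levels, as log2(intensity + 16), of 4 pairs of genes, with 1 point per animal (n = 43). Lum and Dcn (r = 0.82) vary together over the whole range, Mgp and Timp1 (r = 0.64) more loosely, and animals 14 and 43 lie at the ends of the Col4a1 plots.

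The genes most like each member were found by r among 9400 other genes with 1 probe set each, as a description. Dcn was most like Gpm6a (r = 0.88), a membrane glycoprotein of neurons, Ptprd (0.84), a receptor tyrosine phosphatase, and Nefl (0.82), the light neurofilament chain. Lum was most like Ogn (0.82), another small leucine-rich proteoglycan, Anxa1 (0.76), annexin A1, and Drc12 (0.76). Timp1 was most like Ifitm3 (0.77), an interferon-induced membrane protein, Sult1a1 (0.67), a sulfotransferase, and Kitlg (0.64), the ligand of the Kit receptor. Mgp was most like Prpf3 (0.64), a splicing factor, Vim (0.63), the intermediate filament of mesenchymal cells, and Zfp110 (0.59).

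The collagens resembled other sets of genes. Col3a1 was most like Hmox1 (r = 0.66), heme oxygenase 1, Abcc9 (0.64), a subunit of potassium channels in vascular mural cells, and Mrc1 (0.63), the macrophage mannose receptor. Col4a1 was most like Arnt2 (0.62), Pik3r4 (0.61) and Usp36 (0.61), and Fn1 was most like Wipi1 (0.65), Tpst1 (0.61) and Bop1 (0.58). Sparc was most like the lipid enzyme Elovl6 (0.62), Ckap4 (0.61) and the glycolytic enzyme Pfkl (0.60). Col1a2 was most like Bin1 (0.58), Dpysl5 (0.57) and Cln6 (0.56). Col1a1, by its first probe set alone, had the lowest leading values, for Cdhr2 (0.54), LOC100910319 (0.50) and the actin crosslinker gene Flna (0.48).

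The numbers of probe sets that varied with each gene differed by orders of magnitude. Regressions on Dcn called 11.3% of the other probe sets as higher with it and 11.3% as lower, that is 1757 and 1758 of 15511. With Col4a1, 0.864% were higher and 1.1% lower, but none was called without animal 43, on ranks, after quantile normalization or with array quality in the model. Lum called 7.43% as higher and 7.21% as lower. Col3a1 had 0.142% higher and 0.0645% lower, and Mgp had 0.187% and Timp1 0.0193% lower. Fn1 had 0.0967% higher, with 15 probe sets higher and 9 lower, but 5 and 3 without animal 43. After quantile normalization the Fn1 counts were 340 and 318, and with the filter at the 75th percentile 106 and 102 of 7755. Sparc had 0.0258% higher, and none was called in either direction without animal 14 or without animal 38. Col1a1, by its first probe set alone, and Col1a2 called 0% as higher, and Col1a1 0% as lower. With a smooth trend over animal number in the model, however, Col1a2 called 63 higher and 33 lower. Subtracting array medians gave 1184 probe sets higher and 2604 lower with Dcn, so the balance of the 2 directions depends on the scaling.

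Genes of matrix building moved both ways with Dcn. In the list of small proteoglycans and fibroblast genes, 3 of the 7 that passed were higher with Dcn and 1 was lower, beside 11.3% of all probe sets in each direction. The higher genes were Ogn (r = 0.76, adjusted p = 3.35e-07, limma), Prelp (r = 0.73), which encodes a proteoglycan of basement membranes and cartilage, and Bgn (r = 0.47), encoding biglycan, and the lower one was Thy1 (−0.40). Per doubling of Dcn, Ogn was higher by 0.81 ± 0.10 on the log2 scale (SE). Other collagen chains had 3 of 10 higher and none lower, namely Col4a5 (r = 0.67, adjusted p = 3.31e-05), Col16a1 (0.43) and Col11a1 (0.40). Laminins and basement membrane genes had 2 of 6 higher, Lama5 (0.43) and Nid1 (0.38).

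Enzymes that fold and crosslink collagen were called in the opposite direction only. The median r of this list with Dcn was −0.22, against −0.002 over all probe sets. Of 14 genes that passed, 5 were lower with Dcn and none was higher, beside 11.3% of all probe sets in each direction. They were Fkbp10 (r = −0.67, adjusted p = 4.91e-05, limma), a prolyl isomerase of the endoplasmic reticulum, Lox (−0.63), the enzyme that crosslinks collagen and elastin, P4ha2 (−0.58), a prolyl 4-hydroxylase subunit, Plod3 (−0.59), a lysyl hydroxylase, and Bmp1, the procollagen C-proteinase (−0.44). Serpinh1, the collagen chaperone HSP47, was not called (r = −0.04, adjusted p = 0.870). Among matrix glycoproteins, 1 of 5 was lower, the elastic fiber gene Efemp2 (−0.68). Of proteases and their inhibitors, 1 of 6 was lower, Adamts1 (−0.37). Matrix receptors had 3 of 5 higher, among them the collagen receptor Ddr1 (0.55), and 1 lower, Itgb5 (−0.45), with the others Itgav (0.41) and Cd44 (0.42).

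Genes of signaling to the matrix were called in both directions, beside 11.3% of all probe sets in each. In the TGF-beta list, 2 of 9 were higher with Dcn, Ccn2 (r = 0.59), a matricellular target of TGF-beta, and Smad2 (0.52), and 2 were lower, Tgfbi (−0.65) and the ligand gene Tgfb3 (−0.63). In the list of the interleukin-6 family and targets of STAT3, 2 of 9 were higher and 3 lower. They included complement C3 (0.63), Il6r (0.40), Stat3 itself (−0.51) and Cebpb (−0.39).

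Markers of several cell types were called with Dcn as well, beside 11.3% of all probe sets in each direction. Folliculostellate and stem cell markers had 4 of 5 higher and none lower, with a list median r of 0.62. They were Anxa1 (r = 0.81, adjusted p = 2.42e-08, limma), Aldh1a1 (0.68), Sox2 (0.62) and S100b (0.57). The summed intensity of this list ranged from 1686.6 to 3913.4 over the animals, and Gfap did not pass the filter. Endothelial markers had 2 of 5 higher, the angiopoietin receptor gene Tek (0.81) and Emcn (0.65). All 3 gonadotroph markers were higher, Fshb (0.76), Gnrhr (0.74) and Lhb (0.49), as were both somatotroph markers, Gh1 (0.75) and Ghrhr (0.46), and 1 of 2 thyrotroph markers, the hormone gene Tshb (0.72). The other, Trhr, was not called (r = 0.33, adjusted p = 0.0865). Of the 3 lactotroph markers, the dopamine receptor gene Drd2 was lower (−0.62), the pituitary transcription factor gene Pou1f1 was higher (0.59) and Prl was not called (0.33, adjusted p = 0.120). Macrophage markers split, with Csf1r (0.57) and Lyz2 (0.43) higher and Mrc1 (−0.61), Cd68 (−0.43) and Cd14 (−0.40) lower. The only meningeal marker that passed, Aldh1a2, was higher (0.50), and 1 of 3 erythroid markers, Hbb (0.38). None of 4 pericyte markers was called. The part of any of these cell types in the Dcn level was not tested. Without animal 43, the calls of Col11a1, Thy1, Nid1, Itgav, Cebpb, Il6st, Lyz2, Cd14 and Hbb were lost, Smad3, Plvap and the pericyte marker Des became called as higher with Dcn, and Rgs5 as lower.

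**Figure D4:**
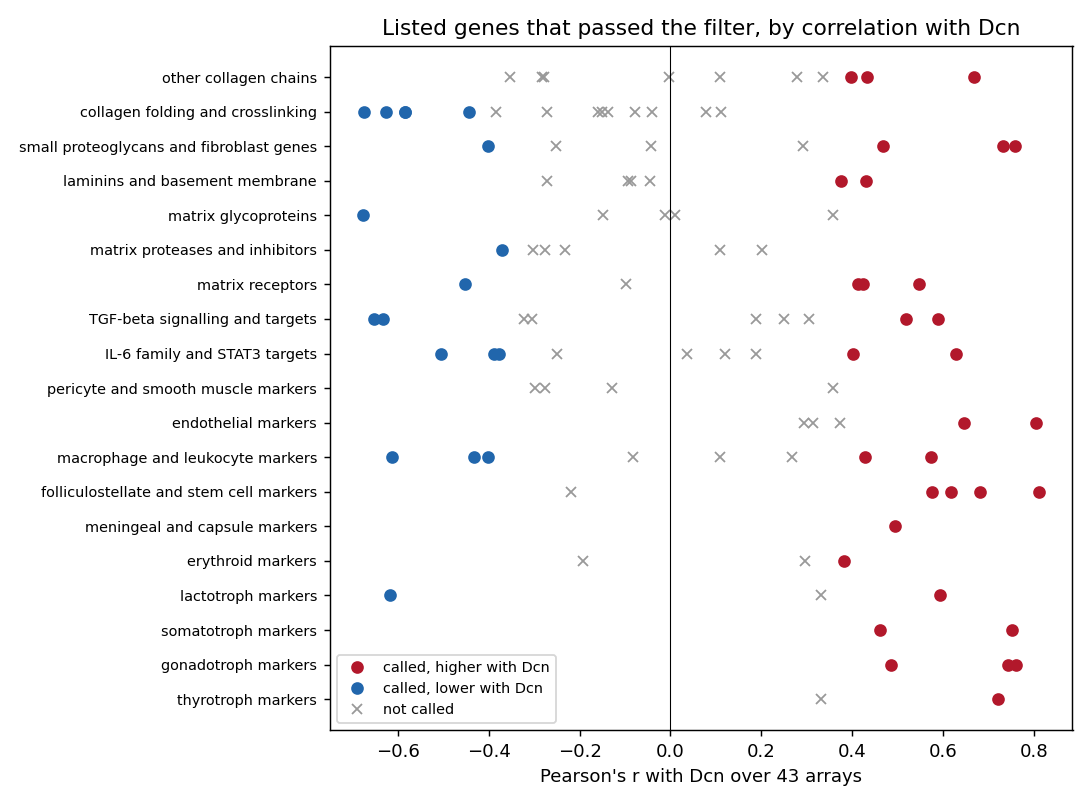
Pearson's r with Dcn over 43 arrays for each listed gene that passed the filter, with 1 row per list. Red points are genes called as higher with Dcn, blue points genes called as lower, and gray crosses genes not called (limma, adjusted p over all probe sets). All 5 called genes of collagen folding and crosslinking lie below 0, and all 4 called folliculostellate and stem cell markers above it.

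Lists were also read against Lum, Col3a1 and Mgp, a choice made after values had been seen. Of the 107 listed genes that passed the filter, 22 were called as higher with Lum and 12 as lower, beside 7.43% and 7.21% of all probe sets, and 32 were called as higher with Dcn and 18 as lower on the same arrays. Small proteoglycans had 2 of 7 higher with Lum, Ogn (r = 0.82) and Prelp (0.65). Other collagen chains had 3 of 10 higher, Col5a2 (0.51), Col4a5 (0.43) and Col16a1 (0.42), and 1 lower, Col6a1 (−0.41). Enzymes of collagen folding and crosslinking had 4 of 14 lower and none higher, Lox (−0.54), Fkbp10 (−0.50), P4ha2 (−0.47) and Plod3 (−0.47). Matrix glycoproteins had 1 of 5 lower, Efemp2 (−0.65), and matrix receptors 1 of 5 higher, Ddr1 (0.44). The TGF-beta list had 2 of 9 higher, Ccn2 (0.59) and Smad2 (0.50), and 2 lower, Tgfbi (−0.65) and Tgfb3 (−0.42). The list of the interleukin-6 family had 1 of 9 higher, C3 (0.53), and 2 lower, Stat3 (−0.48) and Il6st (−0.43). No laminin, protease or pericyte gene was called with Lum.

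Cell type markers were called with Lum as well, beside 7.43% of all probe sets higher and 7.21% lower. Folliculostellate and stem cell markers had 4 of 5 higher, Anxa1 (r = 0.76), Aldh1a1 (0.60), S100b (0.58) and Sox2 (0.45), and endothelial markers had 2 of 5 higher, Tek (0.68) and Emcn (0.58). All 3 gonadotroph markers were higher, Gnrhr (0.59), Fshb (0.56) and Lhb (0.40), as were 1 of 2 somatotroph markers, Gh1 (0.64), and 1 of 2 thyrotroph markers, Tshb (0.64). Pou1f1 (0.56) and Csf1r (0.53) were higher, and Drd2 (−0.55) and Mrc1 (−0.55) were lower. No erythroid marker was called, nor the single meningeal marker that passed. With the smooth trend over animal number in the model, all probe sets called with Lum fell to 155 higher and 101 lower, and with the step to 266 and 174. The part of these cell types in the Lum level was not tested.

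The other genes had few listed genes called. With Timp1 they were Nid1 (r = 0.59, adjusted p = 0.0265, limma), which encodes the basement membrane linker nidogen 1, and the folliculostellate markers Anxa1 (0.59) and S100b (0.58). With Col4a1 the only one of 107 was Plod1 (r = 0.54), a lysyl hydroxylase, beside 0.864% of all probe sets called as higher. The Plod1 call was lost without animal 43, on ranks, after quantile normalization, with array quality in the model and with no filter. With the first Col1a1 probe set none was called, and the lists were not read against the second. Col3a1 was called with 1 of 4 pericyte and smooth muscle markers, Tagln (0.55), and with 2 of 8 macrophage markers, Mrc1 (0.63) and Cd68 (0.56). The uncalled macrophage markers ranged from −0.16 (Cd74) to 0.45 (Cd14), and the uncalled pericyte and smooth muscle markers from −0.14 (Des) to 0.49 (Rgs5). Mgp was called with Nid1 (0.55). Over all probe sets, Col3a1 had 22 called as higher and 10 as lower, but 1 of each without animal 14, and 7 and 1 without animal 38. Mgp had 20 and 29, but 2 and 6 without animal 14 and 114 and 214 without animal 43. Timp1 had 12 and 3, but 74 and 40 without animal 38. On ranks no probe set was called with Col3a1, Mgp or Timp1, and with the smooth trend none with Col3a1 or Mgp and 1 with Timp1. With the step none was called with Col3a1.

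Levels of some genes followed the animal number, whose meaning the labels do not give. A smooth trend (a spline with 6 degrees of freedom) was called in 39% of other probe sets, which had a median of 28.1% of their variance in the trend. For Dcn the share was 54.1% (adjusted p = 0.000238, limma F test), with low values among the low numbers and high values among the high ones. For Timp1 it was 34.8% (adjusted p = 0.0322), but the call was lost without animal 43 (0.0829) and without animal 14 (0.0520). The remaining tested genes, Col1a2, Col3a1, Col4a1, Sparc and Mgp, were not called, with shares of 13.9% to 27.5%. Without animal 43 the share of Col1a2 was 31.4%, against 15.1% with it, and still not called (adjusted p = 0.0685). Called members were thus 2 of 7 beside the 39% of all probe sets.

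With this trend in the model, 247 probe sets were called as higher with Dcn and 150 as lower, and with a step between animals 22 and 23 they were 132 and 67. The step divides the arrays into 22 and 21, the sizes of the weight classes in the design, but no label ties animal numbers to classes. Dcn stayed called with Lum in both models, with partial r of 0.77 and 0.72. Of the listed genes, Ogn (r = 0.74), Bgn (0.61), Col4a5 (0.61), Tek (0.59), Emcn (0.63), Anxa1 (0.73) and Fshb (0.51) were called as higher with Dcn beside the trend (partial r), and none as lower. Beside the step, Ogn (0.73), Col4a5 (0.51), Tek (0.57), Emcn (0.52), Anxa1 (0.71), S100b (0.54) and Ccn2 (0.51) were called as higher and none as lower, while Bgn and Fshb were not called. The 5 enzymes of collagen folding and crosslinking were not called beside the trend or beside the step. The part of animal number in the relations above cannot be told apart from whatever the numbers stand for.

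**Figure D5:**
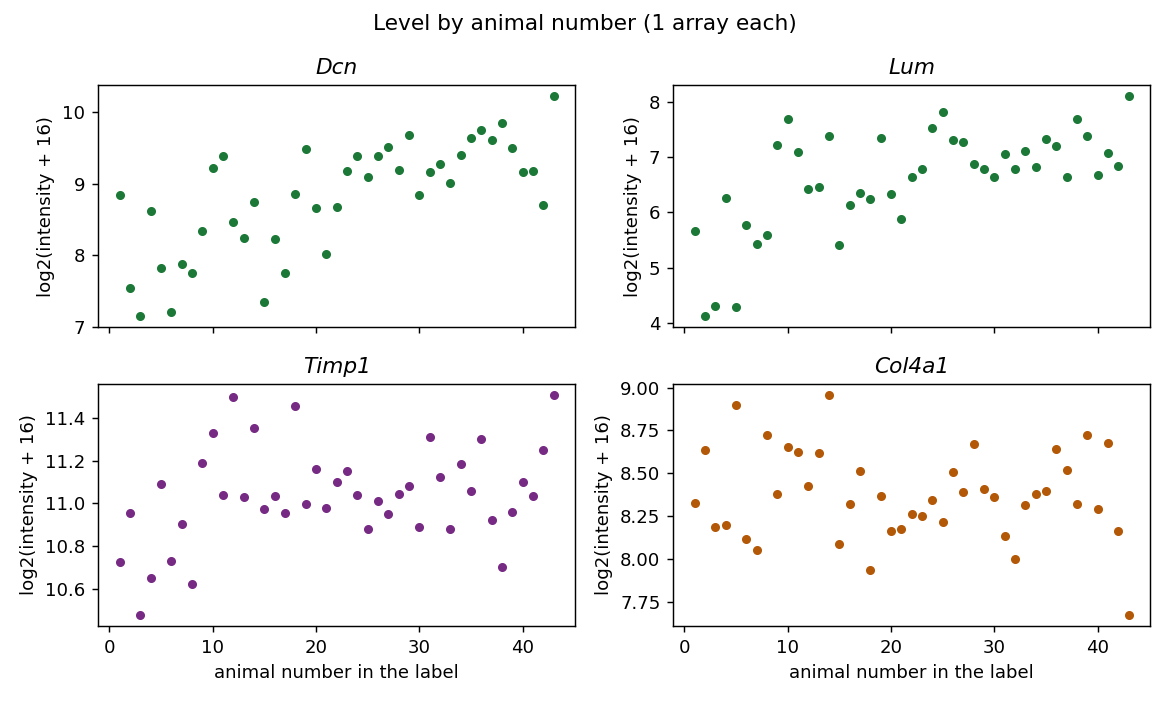
Level of Dcn, Lum, Timp1 and Col4a1, as log2(intensity + 16), against the animal number in the label (1 array each, n = 43). The lowest levels of Dcn and Lum lie at low animal numbers, whereas Col4a1 shows no called trend (13.9% of its variance).

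Array quality was read from the excess of 3' over 5' signal for actin and GAPDH. These were related to 28.4% of other probe sets (limma F test), but to none of the 7 tested genes. Col4a1 came closest, with 16.9% of its variance and an adjusted p of 0.0667, and its share was 4.25% without animal 43.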

How the data were processed

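Anterior pituitary RNA of 43 animals was hybridized to 1 array each. The authors deposited 1 linear intensity per probe set and array. Neither the summarizing software nor a genome build was given in the sources used here. The authors had scaled the values, so that the mean after trimming 2% at each end was 500.17 to 500.22 on every array, and medians were 123.1 to 142.0. This scaling was kept, and log2(intensity + 16) was taken, which understates changes of dim probe sets. Depth does not apply to arrays, and their number limits the precision. No column of the table was left unmapped (0).

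A gene was represented by its probe set with the highest mean. Names came from the platform annotation, which gave 1 symbol to 20826 probe sets, several to 436 and none to 9780, and 57 were controls. Regressions used limma 3.58.1 in R 4.3.3 (lmFit, eBayes, Benjamini-Hochberg, threshold 0.05) and were tested on simulated data. Correlations used 2-sided tests with 100000 permutations (Python 3.11.15, numpy 2.4.6). The labels name separate animals, so p-values measure the spread between animals.

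The named genes were the 10 members, for each the 3 other genes with the highest r, and, for Dcn, Col1a1, Col4a1 and Timp1, up to 4 called genes per list with the smallest p. The further called genes named for Dcn were added to complete the counts. The 22 lists hold 208 entries. Members and lists were chosen with earlier results of these data known. Upstream sequences came from RefSeq (GRCr8), where 5 of the 10 members were found. Alternatives were the pseudocount (1 and 64), quantile normalization, subtraction of array medians, no filter and a filter at the 75th percentile, ranks, the mean of a gene's probe sets, omission of animals 43 or 38, and covariates for array quality, a spline over animal number or a step between animals 22 and 23. Omission of animal 14 was added after seeing the data.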

Additional observations from a re-analysis of the deposited data

How the results depend on the processing

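No paired analysis was possible because all animals formed 1 group. Of 14 alternatives, 10 kept a single called pair (Mgp and Timp1). There was 0 on ranks and with the smooth trend in the model, and 2 with no filter and with the step in the model (Dcn with Lum, and Dcn with Mgp, in addition). No pair was called as opposite under any of the 14. Probe sets called over the 10 regressions numbered 3117 higher and 3100 lower, against 473 and 285 with the smooth trend, 674 and 582 with the step, and 2081 and 4814 after subtracting array medians. Under the other 11 alternatives both counts stayed within 1.5 times. The number of other probe sets tested per regression differed with the filter, being 31028 with none and 7755 at the 75th percentile, against 15511. Counts under these filters are therefore not shares of the same total. Dcn with Lum kept its call in the tested directions under all 13 alternatives that tested it (r = 0.72 to 0.83). Mgp with Lum lost its call under 6 of 14 (adjusted p up to 0.310). Calls were also gained in the tested directions. Col4a1 with Fn1 was called under 3 of 13 (adjusted p down to 0.0242, limma) and Col3a1 with Fn1 under 2 of 13 (0.0291). Lum with Timp1 was called under 4 of 14 (0.0244), Dcn with Mgp under 2 of 14 (0.0212) and Dcn with Timp1 under 1 of 14 (0.0399). Dcn with Col3a1, not called, turned to r = 0.18 with the smooth trend and 0.12 with the step. For the trend over animal number, members called fell to 1 without animal 43, without animal 14, on ranks and with array quality in the model (Timp1 lost), and to 1 with the filter at the 75th percentile, where Dcn was not tested. With no filter Timp1 was lost too (adjusted p = 0.0778) and Lum was called. Other probe sets called were 6053, against 3788 without animal 43 and 2545 with array quality in the model. For array quality they were 4408, against 165 without animal 43, 0 on ranks and 207 with the smooth trend. The causes were not tested. The low intensities of Lum, Col1a1 and Fn1 limit what their levels can show, and probe sets of 1 gene disagreed for Col1a1.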

Other observations

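With Col3a1 the folliculostellate and stem cell markers had a list median r of −0.35, against −0.008 over all probe sets, and none of the 5 that passed was called. Their r ranged from −0.42 (Sox2) to −0.02 (Cxcl12). This was not particular to that list. The somatotroph median was −0.38, and other lists were negative too, among them gonadotroph (−0.26), matrix receptor (−0.24) and thyrotroph (−0.20) genes. None of the 10 other collagen chains that passed was called with Col3a1, Col4a1, Mgp or Timp1. Over all other probe sets, 0.0193% (lower with Timp1) to 1.1% (lower with Col4a1) were called in a direction with these genes. A count of 0 of 10 lies near those shares and is no result about collagen chains.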
